A study of Homo sapiens with 4 samples.

Results

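Expression of 10 genes of the bone morphogenetic protein (BMP) pathway was examined with and without 5-azacytidine (AZA) in the MDS-L line and in its AZA-resistant derivative, MDS-L/CDA. They were the ligand genes BMP2, BMP4 and BMP6, the type I receptor genes ACVR1 and ACVRL1, the target genes ID1, ID2 and ID3, and the inhibitory SMAD genes SMAD6 and SMAD7. Every probe that carried one of these names on the array was taken, which gave 12 probes of 58185 and 10 gene names of 43311. The genes were selected on earlier results from these same 4 arrays, that is, on their signals with AZA and with vehicle, so the values given here are a description.

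MDS-L cells derive from a patient with myelodysplastic syndrome (MDS), and resistance in MDS-L/CDA was conferred by transducing CDA, the gene of cytidine deaminase, which inactivates AZA. The promoter behind the transduced gene, and whether the line is a single clone, are not given in the sources used here. For 72 h each line was kept in medium with IL-3 and either AZA at 1 μM or its vehicle, DMSO at 0.1%, and RNA of each of these 4 conditions was hybridized to 1 array with a single dye (Cy3). For MDS-L with AZA and for MDS-L/CDA with vehicle, one label field names the opposite treatment. Title, description and source name give every sample the treatment used here, but the titles of both AZA samples state the dose in mM where the other fields have μM. All 4 arrays lay on 1 slide. With 1 array per condition, no difference below has a replicate check and no test was made. Errors given after ± are standard errors computed from the error that the scanner software attached to each signal, and they leave out differences between hybridizations and between cultures.

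BMP ligands bind complexes of type I and type II receptors, which phosphorylate SMAD1, SMAD5 and SMAD9. These enter the nucleus with SMAD4 and activate target genes, among them ID1, ID2 and ID3, whose products bind E proteins and keep them from DNA. SMAD6 and SMAD7 are also induced by the pathway and dampen it, and in blood the pathway is known for its part in the formation and maintenance of progenitor cells.

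The signals of a gene rest on short probes, and 3 of them are printed here with their positions in hg19, the build named in the array files. They are the brighter probe of ID2 and the probe of ID3, the ID genes called with AZA, and the probe of BMP4, a ligand gene with signal in both lines. ID2 was read by a pair of probes. The brighter one, at chr2:8822642-8823030 on the plus strand, spans 389 bases for a length of 60, so that its letters skip 329 bases of the genome and it reads spliced RNA. The other lies within a single stretch at chr2:8824282-8824341. The probes of ID3, at chr1:23885666-23885725 on the minus strand, and of BMP4, at chr14:54417318-54417377 on the minus strand, are each 1 unbroken stretch of 60 bases. The 3 ID genes and the BMP genes are families, but the longest run of bases that any member probe shared with the probe of another member was 8. Letters are 5′ to 3′.
ID2: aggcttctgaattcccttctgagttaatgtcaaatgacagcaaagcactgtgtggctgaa
ID3: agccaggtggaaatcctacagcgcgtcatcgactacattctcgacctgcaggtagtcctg
BMP4: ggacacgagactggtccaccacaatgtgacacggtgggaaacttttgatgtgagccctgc

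The remaining probes were also 60 bases long. BMP2 was read at chr20:6760810-6760869, BMP6 at chr6:7881395-7881454, ACVRL1 at chr12:52317034-52317093, ID1 at chr20:30194158-30194217 and SMAD6 at chr15:67074263-67074322, all on the plus strand. ACVR1 was read at chr2:158593434-158593493 by its brighter probe and at chr2:158593976-158594035 by the other, and SMAD7 at chr18:46446782-46446841, these 3 on the minus strand. Exon and UTR annotation of hg19 was not used here.

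AZA is incorporated into DNA and traps DNA methyltransferases, which act on CpG dinucleotides, so the CpG content of the promoters is given as context. Methylation was not measured on these arrays. RefSeq promoter windows of GRCh38.p14 matched 8 of the 10 genes, all but BMP2 and ACVRL1, with 14 windows among 35116. In the 250 bases before the gene start, ID2 had 29 CpG, BMP6 had 26 and ID1 had 19, and the median over all windows was 11, with quartiles of 3 and 23. As many CpG as in the ID2 window were found in 14.1% of all windows, as many as in the BMP6 window in 19.58% and as many as in the ID1 window in 34.65%. The 3 windows are shown because AZA gave these genes large, large and small ratios, respectively, in MDS-L cells. They were picked by ratio, so nothing is read from the order of their CpG counts. Whether CpG content goes with the ratio was not tested. Capitals mark CpG, and the windows are chr6:7725849-7726098 for BMP6, chr20:31605039-31605288 for ID1 and chr2:8681806-8682055 for ID2, all on the plus strand.
BMP6: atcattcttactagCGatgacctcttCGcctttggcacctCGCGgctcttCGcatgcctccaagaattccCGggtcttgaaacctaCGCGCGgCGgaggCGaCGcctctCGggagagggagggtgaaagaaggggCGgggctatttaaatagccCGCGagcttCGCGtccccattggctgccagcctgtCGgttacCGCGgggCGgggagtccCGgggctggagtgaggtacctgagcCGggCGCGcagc
ID1: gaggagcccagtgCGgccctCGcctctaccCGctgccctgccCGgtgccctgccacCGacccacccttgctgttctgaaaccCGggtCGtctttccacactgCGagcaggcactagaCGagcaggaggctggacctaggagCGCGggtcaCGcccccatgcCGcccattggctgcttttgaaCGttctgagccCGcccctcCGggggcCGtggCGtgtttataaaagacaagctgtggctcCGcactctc
ID2: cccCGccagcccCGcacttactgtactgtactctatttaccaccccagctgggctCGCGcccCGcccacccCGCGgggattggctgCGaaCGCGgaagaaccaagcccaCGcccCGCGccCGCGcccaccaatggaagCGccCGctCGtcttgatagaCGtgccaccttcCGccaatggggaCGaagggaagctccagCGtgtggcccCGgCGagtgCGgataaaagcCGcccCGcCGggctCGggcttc

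ID3 had 24 CpG in its window, and SMAD6 had 25, beside ratios of AZA to vehicle in MDS-L of 1.75 and 0.743. BMP4, ACVR1 and SMAD7 had 3 windows each, with 17 to 27, 3 to 30 and 2 to 13 CpG. Their ratios in MDS-L, by the brightest probe, were 0.958, 1.92 and 2.74. The windows were also searched on both strands for GTCT, the core of the SMAD binding element, for its palindrome GTCTAGAC, which holds GTCT on both strands and was added to the search after the windows had been seen, and for GGCGCC, a GC-rich element bound by BMP-activated SMADs. GTCT was present in all member windows but 1 of BMP4, as in 77.48% of all windows. GGCGCC was present in 1 window of BMP4 and 1 of ACVR1, and in 16.38% of all windows. The palindrome was present among the members in SMAD6 alone, 12 bases before the gene start, and in 64 of all windows (0.1823%). The SMAD6 window, chr15:66701986-66702235 on the plus strand, is shown with the palindrome in capitals.
SMAD6: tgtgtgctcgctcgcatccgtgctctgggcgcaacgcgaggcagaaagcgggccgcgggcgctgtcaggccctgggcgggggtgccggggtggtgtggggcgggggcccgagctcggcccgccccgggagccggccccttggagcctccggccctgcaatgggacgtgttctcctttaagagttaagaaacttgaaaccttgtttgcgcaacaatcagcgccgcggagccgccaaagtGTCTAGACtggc

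Signals are given as multiples of the 75th percentile of the array, and a level is compared only between arrays for the same probe. That percentile was 52.5 and 52.9 on the MDS-L arrays and 40.8 and 37.3 on those of MDS-L/CDA (vehicle first), and 32.6% to 36.5% of probes were flagged by the scanner software as well above background. A gene was called higher or lower when its brightest probe was well above background on the brighter array and the ratio was at least 2. Where the dimmer array was not well above background, the ratio was taken against the lowest signal on that array which carried the flag, or against the dim probe's own signal if that was higher. Such a ratio is a bound, written as at least. No ratio is given where neither array was well above background. As a check of the labels, the CDA probe had relative signals of 0.105 and 0.0943 in MDS-L (vehicle, then AZA) and 0.110 and 0.146 in MDS-L/CDA, none well above background. Whether that probe lies within the transduced sequence is not given in the sources used here.

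Markers of blood progenitor and myeloid cells fitted the label of the lines, with 8 of 8 well above background in both MDS-L arrays and 7 of 8 in both MDS-L/CDA arrays, and a summed relative signal of 210 to 229. Single markers of this list did shift with AZA. KIT, the stem cell factor receptor, went from 0.503 to 23.8 in MDS-L (47.3-fold) and from 0.346 to 1.24 in MDS-L/CDA (3.58-fold), by its brightest probe. Another KIT probe gave at least 5.20-fold in MDS-L and no ratio in MDS-L/CDA, and a further probe gave no ratio in either line. CD38 had ratios of 0.359 and 0.725. The part of KIT and CD38 in the results below was not tested. No stromal marker of 8 was well above background on any array. Of 8 endothelial markers, the same 2 were, ESAM and TIE1, while the defining markers CDH5, CLDN5, TEK and KDR were not.

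In MDS-L cells 4 of the 10 genes, namely BMP6, ACVRL1, ID2 and SMAD7, were called higher with AZA and none lower. In MDS-L/CDA cells 1, ID3, was called higher and none lower. ACVRL1 and SMAD7 lost the call with median scaling and after normexp background correction, and ID3 after normexp. ACVR1 gained a call in MDS-L with quantile normalization. Normexp here added an offset of 50, beside array 75th percentiles of 37.3 to 52.9, which draws the ratios of dim probes toward 1. The array medians, at signals of 3.12 to 4.58, lay below the lowest signal well above background (9.98 to 11.1). Median scaling thus aligned the arrays on dim probes. Over all genes measured, 6.73% were called higher and 6.04% lower in MDS-L, and 2.53% higher and 3.07% lower in MDS-L/CDA. Because the members were chosen with these ratios known, nothing is read from their share or from their medians beside those of all genes. The median log2 ratio was 0.94 over the 9 members measured in MDS-L, against -0.13 over all 17172 genes measured. In MDS-L/CDA it was 0.39 over the 7 members measured, against 0.02 over 15393. These member medians count bounds, of ACVRL1 in MDS-L and of BMP4 in MDS-L/CDA. With both arrays required well above background they were 0.88 and 0.35. In bulk RNA, a change in the share of cells that express a gene and a change in RNA per cell cannot be told apart.

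**Figure D1:**
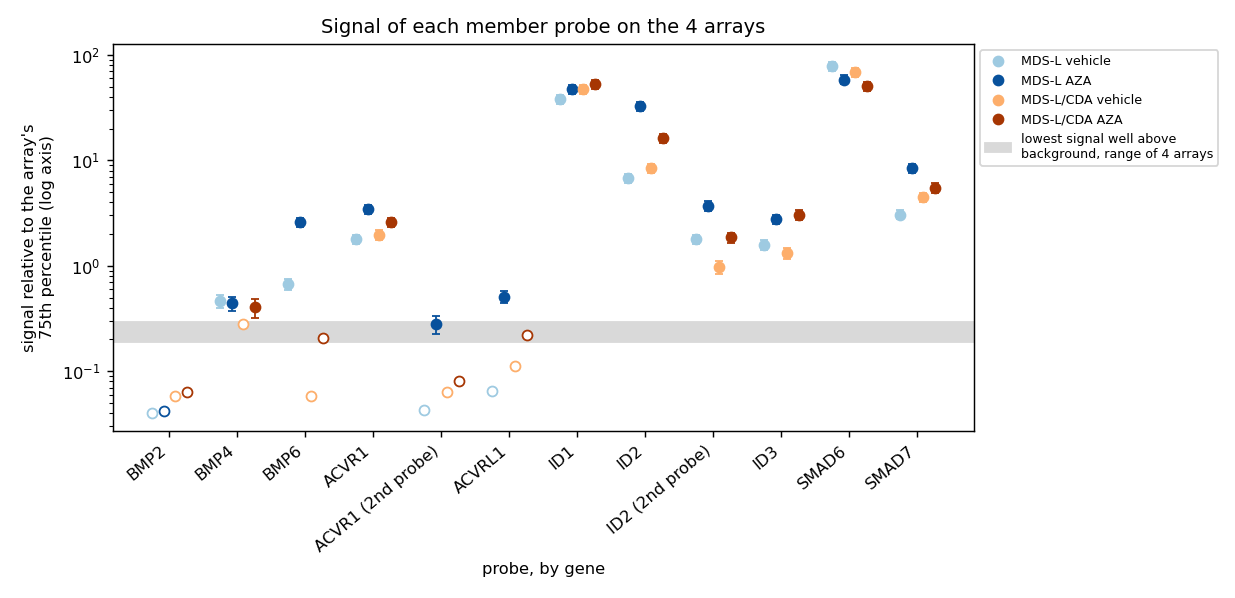
Signal of each of the 12 member probes on the 4 arrays, relative to the array's 75th percentile, on a log axis. Filled points were well above background, open points were not, bars are 1 scanner error, and the grey band spans the lowest signal well above background over the arrays (0.190 to 0.296). BMP2 is open on all 4 arrays, BMP6 is filled in MDS-L alone, and the ID2 probe rises from 6.76 to 32.5 in MDS-L and from 8.37 to 16.1 in MDS-L/CDA.

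BMP6 was the ligand gene called higher with AZA. BMP6 is a ligand best known for inducing hepcidin in iron metabolism. Its relative signal was 0.672 in MDS-L vehicle and 2.61 in MDS-L AZA, and in MDS-L/CDA it was not well above background with vehicle (0.0580) or with AZA (0.206). Both MDS-L arrays were thus above both MDS-L/CDA arrays. The ratio of AZA to vehicle in MDS-L was 3.88-fold (log2 1.96 ± 0.22), which came to log2 1.16 after normexp and 1.41 with median scaling, and no ratio is given for MDS-L/CDA. BMP4, a ligand that patterns the mesoderm from which blood arises, gave 0.461 and 0.442 in MDS-L, and in MDS-L/CDA 0.278, not well above background, with vehicle and 0.406 with AZA. The AZA ratio of BMP4 in MDS-L was 0.958 (log2 -0.06 ± 0.29), within its scanner error of no difference, and in MDS-L/CDA it was at least 1.46. BMP2, a ligand known for bone formation, stayed below that flag on every array, with relative signals of 0.0401 to 0.0638, so nothing can be said of its direction.

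The receptor gene ACVRL1 was well above background on 1 array only, MDS-L with AZA. ACVRL1 encodes ALK1, a type I receptor best known in endothelial cells. Its relative signal was 0.0644 with vehicle and 0.509 with AZA in MDS-L, and 0.111 and 0.222 in MDS-L/CDA. The AZA ratio in MDS-L was at least 2.68, and the computed ratio, which takes the dim vehicle signal at its own value, was 7.91. The bound came below 2 when arrays were scaled to their median (log2 0.88) and after normexp background correction (log2 0.37). Beside this gene, the summed relative signal of the endothelial markers was 3.20 and 6.91 in MDS-L and 2.94 and 5.98 in MDS-L/CDA, again vehicle first, with ESAM, an adhesion molecule, at 4.15-fold in MDS-L and 2.89-fold in MDS-L/CDA and TIE1, a receptor tyrosine kinase, at 1.87-fold and 2.03-fold. The part of such cells or markers in the ACVRL1 result was not tested.

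ACVR1 encodes ALK2, the type I receptor mutated in fibrodysplasia ossificans progressiva. Its brighter probe gave 1.78 and 3.42 in MDS-L and 1.97 and 2.58 in MDS-L/CDA, for vehicle and AZA respectively. In both lines the AZA array was the higher one. The AZA ratio was 1.92 in MDS-L (log2 0.94 ± 0.21), just under the call, and 1.31 in MDS-L/CDA (log2 0.39 ± 0.22). The MDS-L value passed the call with quantile normalization and in the authors' value table (log2 1.04 in each) and came to 0.40 with median scaling. The other ACVR1 probe was well above background in MDS-L AZA alone (0.278), beside 0.0430 with vehicle in MDS-L, and 0.0635 with vehicle and 0.0809 with AZA in MDS-L/CDA. Its ratio in MDS-L was at least 1.46.

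The 3 ID genes gave different ratios. ID2 had the highest AZA ratio in MDS-L cells among the members measured on both arrays, at 4.80-fold (log2 2.26 ± 0.20), from a relative signal of 6.76 with vehicle to 32.5 with AZA. In MDS-L/CDA the same probe gave 8.37 with vehicle and 16.1 with AZA, a ratio of 1.93 (log2 0.95 ± 0.20). The AZA array was above the vehicle array in both lines. The second ID2 probe gave 1.79 and 3.71 in MDS-L, and 0.976 and 1.86 in MDS-L/CDA. Its ratios were 2.07 (log2 1.05 ± 0.21) and 1.90 (log2 0.93 ± 0.26), so the ID2 probes were close to each other in MDS-L/CDA and differed by more than their scanner errors in MDS-L. At this scaling the gene's call as higher in MDS-L held with either probe, though the second lay just past 2-fold. Median scaling shifted the median log2 ratio of all genes in MDS-L by -0.54, more than that margin.

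ID3, an ID family member prominent in lymphoid development, had relative signals of 1.58 and 2.77 in MDS-L and of 1.32 and 3.05 in MDS-L/CDA, for vehicle and AZA. Its AZA ratio was 1.75 in MDS-L (log2 0.81 ± 0.21) and 2.31 in MDS-L/CDA (log2 1.21 ± 0.22), where it was the called member. After normexp correction the MDS-L/CDA value was log2 0.69 and no longer called. ID1, the family member most often used as a readout of BMP signalling, gave 38.0 with vehicle and 47.2 with AZA in MDS-L, and 47.1 and 52.5 in MDS-L/CDA. The 4 values lay close together. Its AZA ratio was 1.24 in MDS-L (log2 0.31 ± 0.20) and 1.115 in MDS-L/CDA (log2 0.16 ± 0.20), and median scaling turned the first to log2 -0.23.

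SMAD7 and SMAD6, which both encode inhibitory SMADs, had AZA ratios on opposite sides of 1 in MDS-L cells. SMAD7, whose product also blocks TGF-β receptors, had relative signals of 3.06 with vehicle and 8.38 with AZA in MDS-L, and 4.45 and 5.48 in MDS-L/CDA. The MDS-L AZA array was the highest of the 4, and the MDS-L vehicle array the lowest. The ratio was 2.74 in MDS-L (log2 1.45 ± 0.21) and 1.23 in MDS-L/CDA (log2 0.30 ± 0.21). The MDS-L value was under the call with median scaling (log2 0.91) and after normexp (log2 0.94). SMAD6, whose product acts mainly on the BMP branch, gave 78.6 and 58.4 in MDS-L and 68.6 and 50.8 in MDS-L/CDA. Its AZA array was the lower one in each line, with ratios of 0.743 (log2 -0.43 ± 0.20) and 0.740 (log2 -0.43 ± 0.20) that did not pass the call. SMAD6 in both lines and BMP4 in MDS-L were the members with an AZA ratio below 1 at this scaling.

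**Figure D2:**
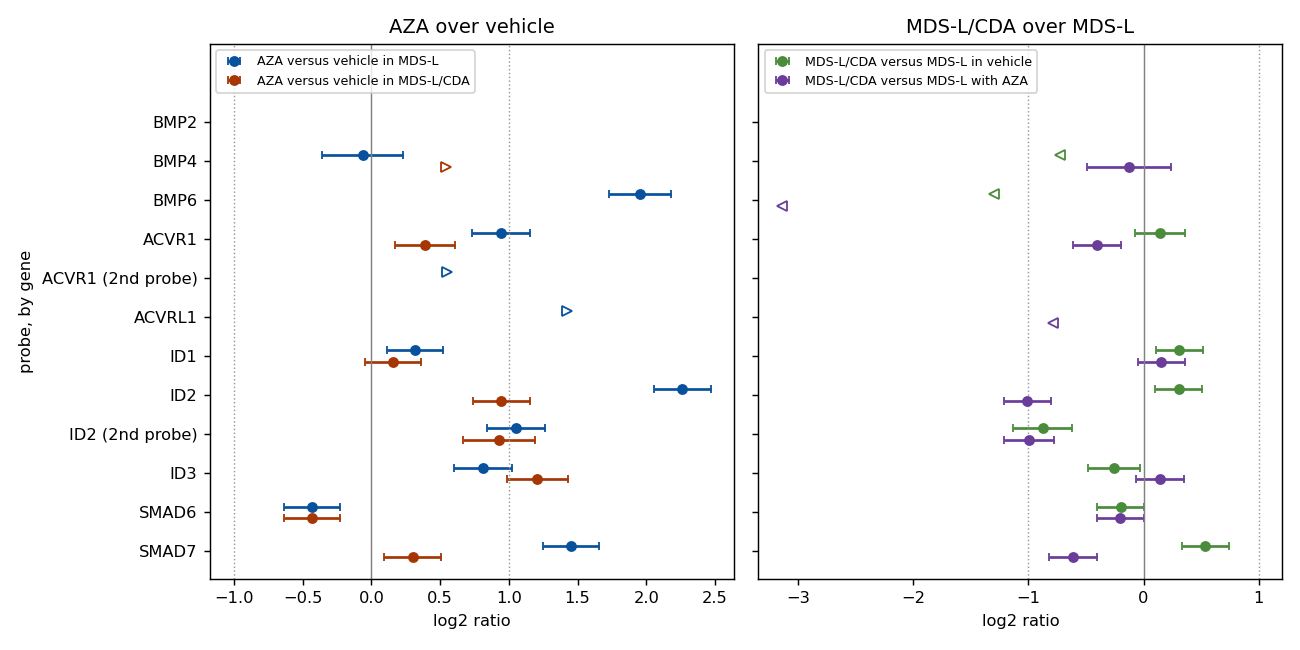
Log2 ratios of each member probe for AZA over vehicle in each line (left) and for MDS-L/CDA over MDS-L under each treatment (right). Bars are ±1 standard error from the scanner, open triangles are bounds that point away from 0, and dotted lines mark a 2-fold ratio. ID2 and SMAD7 lie at 2.26 and 1.45 in MDS-L and at 0.95 and 0.30 in MDS-L/CDA, whereas the SMAD6 values of both lines coincide at -0.43.

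The AZA ratios of the lines were then compared for the 7 probes, of 6 member genes, that were well above background on all 4 arrays. The log2 ratio of ID2 was higher in MDS-L than in MDS-L/CDA by 1.32 ± 0.29 and that of SMAD7 by 1.15 ± 0.29, which made these 2 of 6 genes differ by at least 2-fold. Over all 13962 genes measured on every array, 3.90% had a ratio at least 2-fold greater in MDS-L and 6.15% one at least 2-fold greater in MDS-L/CDA. The members were chosen with these signals known, so nothing is read from their share. The differences were 0.55 ± 0.30 for ACVR1, 0.16 ± 0.29 for ID1 and 0.00 ± 0.29 for SMAD6. ID3 differed the other way, by -0.40 ± 0.31. The second ID2 probe gave 0.12 ± 0.34 where the brighter one gave 1.32, so the ID2 difference between the lines rests on 1 of 2 probes. With median scaling every difference was lower by the same amount, and ID2 and SMAD7 came to 0.83 and 0.67, under 2-fold, ID3 to -0.88 and SMAD6 to -0.48. After normexp the SMAD7 difference was 0.77, also under 2-fold, and that of ID2 was 1.37.

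**Figure D3:**
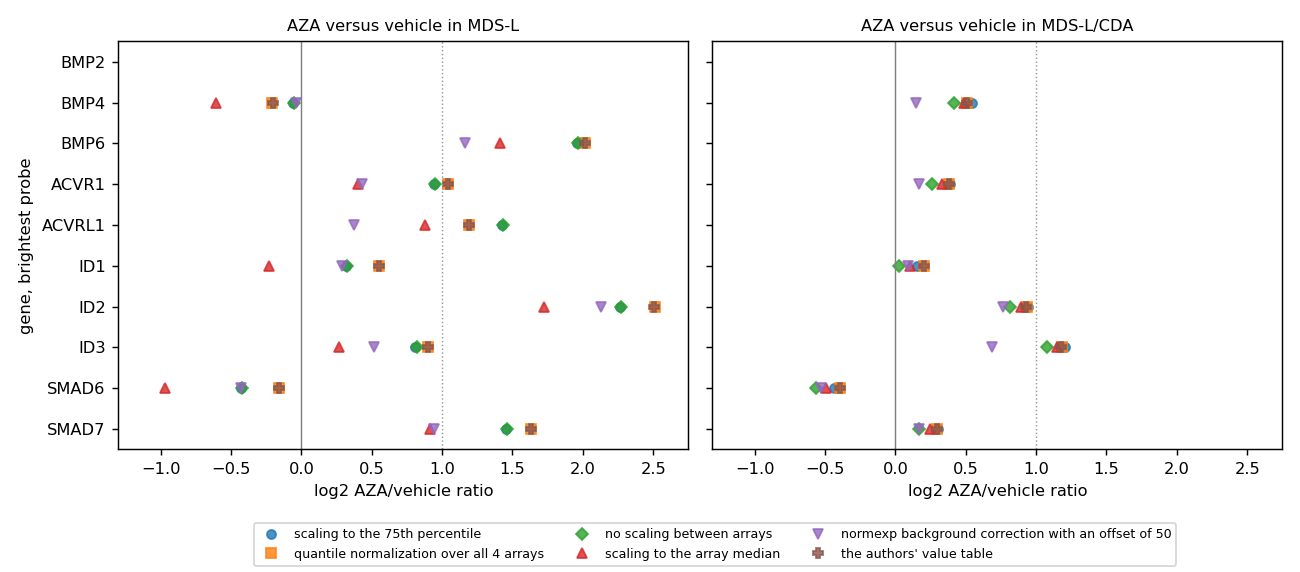
Log2 AZA/vehicle ratio of the brightest probe of each member under 6 ways of scaling the arrays, in MDS-L (left) and MDS-L/CDA (right). The solid line marks 0 and the dotted line a 2-fold ratio. In MDS-L, BMP6 and ID2 lie beyond 2-fold under all 6, SMAD7 drops to 0.91 with median scaling and 0.94 with normexp, ID1 crosses 0 with median scaling, and in MDS-L/CDA ID3 alone reaches 2-fold, in 5 of the 6.

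Between the lines with vehicle, 1 member, BMP6, was lower in MDS-L/CDA and none was higher. Over all 16015 genes measured, 1.97% were called higher in MDS-L/CDA and 2.64% lower, and again nothing is read from the members' share. BMP6 was at least 2.47-fold lower in MDS-L/CDA, while BMP4 was at least 1.66-fold lower and not called. The BMP6 call was lost after normexp (log2 -0.30) and when both arrays had to be well above background, and BMP4 was called with no scaling (log2 -1.10) and with median scaling (log2 -1.25). The second ID2 probe had a ratio of MDS-L/CDA to MDS-L of 0.546 (log2 -0.87 ± 0.26), where the brighter probe had 1.24 (log2 0.31 ± 0.20), which turned to log2 -0.22 with median scaling. SMAD7 had a ratio of 1.45 (log2 0.54 ± 0.21), which fell to log2 -0.01 with normexp and 0.02 with median scaling. The ratios of ACVR1, ID1, ID3 and SMAD6 lay between 0.837 and 1.24.

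With AZA, 2 members, BMP6 and ID2, were lower in MDS-L/CDA than in MDS-L and none was higher. Over all 16739 genes measured, 5.23% were lower and 5.42% higher, and here too nothing is read from the members' share. BMP6 was at least 8.81-fold lower in MDS-L/CDA (log2 -3.14), a bound that came to log2 -1.43 after normexp, and it was not called when both arrays had to be well above background. ID2 was 2.01-fold lower by its brighter probe (log2 -1.01 ± 0.20), and its second probe gave log2 -0.997 ± 0.22. These arrays are the ones behind the AZA ratios above, so the values are the same measurements seen from the other side. ACVRL1 was at least 1.72-fold lower, SMAD7 had a ratio of 0.654 (log2 -0.61 ± 0.21) and ACVR1 one of 0.755 (log2 -0.41 ± 0.21). With no scaling ACVRL1 (log2 -1.29) and SMAD7 (log2 -1.12) were called lower too. BMP4, ID1, ID3 and SMAD6 had ratios of 0.870 to 1.11.

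Other genes of the pathway were taken from lists compiled with earlier results of these arrays known, so nothing is read from their counts of calls. Of 12 other BMP ligand genes on the array, 2 were measured, and GDF3, a ligand of the early embryo, was called higher in both lines. Over all genes measured, 6.73% were called higher in MDS-L and 2.53% in MDS-L/CDA. GDF3 counted as measured through the AZA array alone in each line and could not have been called lower. GDF3 went from a signal not well above background with vehicle to 0.648 with AZA in MDS-L (at least 3.42-fold) and to 0.609 in MDS-L/CDA (at least 2.24-fold). Of 11 other receptor and co-receptor genes, 3 were measured and none was called in either line. BMPR1A, a type I receptor, had AZA ratios of 0.776 in MDS-L and 0.904 in MDS-L/CDA, and ACVR2B, a type II receptor, 0.578 and 0.612. ENG, a co-receptor, had a ratio of 0.720 in MDS-L and a log2 ratio of 0.14 in MDS-L/CDA. The SMADs that carry the signal were measured for 3 of 4 genes, again with no call, and SMAD1, SMAD5 and SMAD4 had ratios of 0.665, 0.767 and 0.725 in MDS-L and of 0.861, 0.677 and 0.862 in MDS-L/CDA. With median scaling, 2 of the receptors and 2 of these SMADs were called lower in MDS-L. That scaling shifted the median log2 ratio of all genes in MDS-L by -0.54, to -0.70. The share of all genes called lower under it is not given here, so nothing is read from these 2 counts.

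Among 19 genes on the array whose products oppose BMP or related signals, 6 were measured in MDS-L. Of these, 3 were called higher with AZA and none lower, beside 6.73% higher and 6.04% lower over all genes measured. Only 3 of the 19 were well above background with vehicle, and 6 were with AZA. The 3 called genes counted as measured through the AZA array alone and could not have been called lower, so nothing is read from the count. FST, which encodes the activin and BMP binding protein follistatin, went from 0.225, not well above background, to 1.20 (at least 5.34-fold). SKIL, a SMAD co-repressor, went from 0.0423, not well above background, to 1.01 (at least 5.32-fold), and CHRD, the BMP antagonist chordin, from 0.173, also not well above background, to 0.451 (at least 2.37-fold). BAMBI, a decoy receptor, at 1.98-fold and SKI, a SMAD co-repressor, at 1.91-fold were just under the call, and quantile normalization brought the count to 5. In MDS-L/CDA 5 were measured and none was called, with bounds of at least 1.14 for FST, 1.38 for SKIL and 1.61 for CHRD. The lowest signal well above background was 0.272 on the MDS-L/CDA vehicle array and 0.190 on that of MDS-L, which lowers bounds in MDS-L/CDA. With AZA, CHRD had nearly the same signal in MDS-L (0.451) and MDS-L/CDA (0.454), so its call does not set the lines apart. FST (1.20 and 0.311) and SKIL (1.01 and 0.375) were lower in MDS-L/CDA with AZA. BAMBI differed most between the lines in this list, with 9.42 and 18.6 in MDS-L and 0.240 and 0.256, neither well above background, in MDS-L/CDA. It was at least 34.6-fold lower in MDS-L/CDA with vehicle and at least 63.0-fold lower with AZA. All 3 calls in MDS-L rest on a vehicle array not well above background, and they were lost after normexp correction. Its offset of 50 draws such dim ratios toward 1, so that loss cannot decide whether the calls hold.

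GATA2, a transcription factor of blood progenitors, was the gene called among 4 measured of 12 other targets in either line. Its relative signal went from 13.3 to 32.7 with AZA in MDS-L (2.46-fold) and from 13.1 to 26.4 in MDS-L/CDA (2.01-fold), and neither call held with median scaling. In the TGF-β and activin branch, 7 of 16 genes were measured. TGFBR1 was called lower in both lines (ratios 0.415 and 0.400), and TGFBR2 was called higher in MDS-L (2.05-fold, with 2.76-fold by its other probe) and had a ratio of 1.24 in MDS-L/CDA. Both encode TGF-β receptors. Of 8 E protein and related bHLH genes, the binding partners of ID proteins or of their targets, 5 were measured. TAL1, a regulator of blood stem cells and of erythroid cells, was called higher in MDS-L/CDA (2.35-fold) and had a ratio of 1.62 in MDS-L, and TCF3, which encodes the E protein E2A, had ratios of 0.646 and 0.628 and was not called. After normexp correction these lists held 1 call in all, among the other targets in MDS-L.

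**Figure D4:**
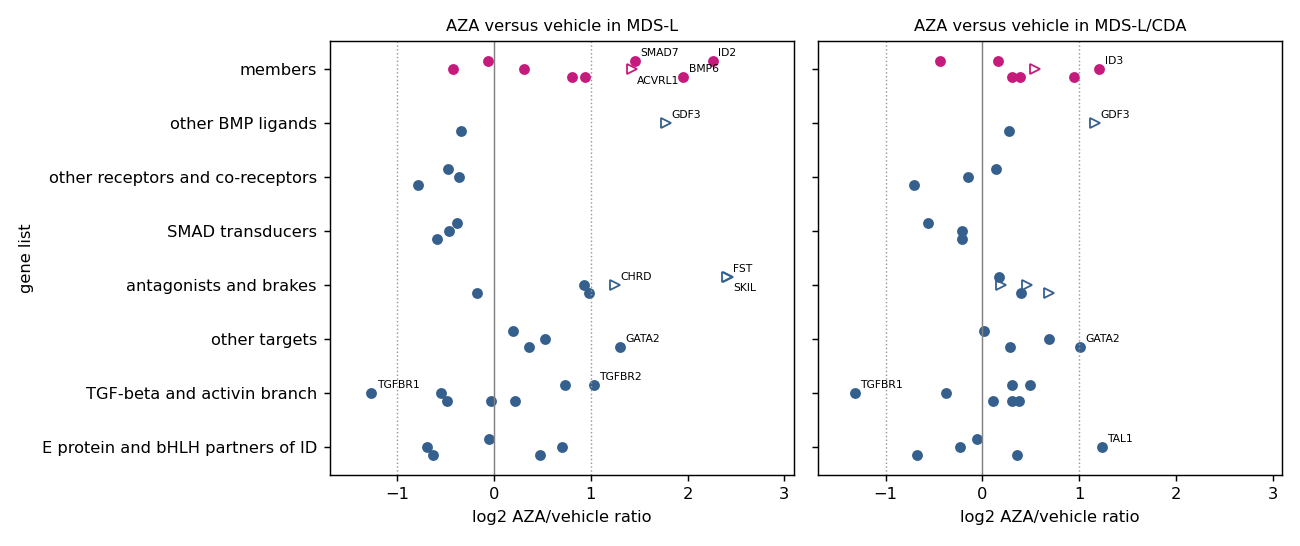
Log2 AZA/vehicle ratios of the measured genes of each pathway list, by brightest probe, in MDS-L (left) and MDS-L/CDA (right). Filled points are ratios, open triangles are lower bounds, dotted lines mark 2-fold and called genes are named. In MDS-L the measured genes of the list of other receptors and co-receptors and of the signal-carrying SMADs lie below 0. The receptor genes of other lists, ACVR1 (0.94), ACVRL1 (bound 1.42) and TGFBR2 (1.03), lie above 0, and TGFBR1 (-1.27) lies below. FST and SKIL stand at bounds near 2.4.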

How the data were processed

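RNA of 4 conditions was measured on 1 Agilent one-colour array each, on 1 slide. The authors deposited scanner files from Agilent Feature Extraction 10.7.1.1 (version from the submitters' processing notes), whose processed signal is an intensity on a linear scale, background-subtracted within the array and not normalized between arrays. Their value table, also intensity, holds 51680 probes, and the largest log2 difference between its sorted columns was 0.0391.

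Control spots and flagged outliers were removed (16 of 58201 probes were lost), the log2 processed signals of replicate spots were averaged, and the 75th percentile of the array was subtracted. A gene is given by its brightest probe, and gene names and hg19 positions are those of the array files. Calls need a ratio of at least 2. The study's methods also ask for a Z score of at least 2 without a formula, so a Z score within 10 bins of mean signal was an alternative. All 10 members are named, and other pathway genes when called in either line or as examples with values. The members and lists were chosen with earlier results of these data known. Marker lists were blood progenitor and myeloid (PTPRC, CD34, CD33, KIT, IL3RA, SPN, CD38, CD44), endothelial (CDH5, CLDN5, TEK, KDR, ESAM, ROBO4, EMCN, TIE1) and stromal (COL1A1, COL1A2, COL3A1, DCN, LUM, PDGFRB, PDGFRA, POSTN). Spots of 1 probe differed by a median SD of 0.118 to 0.194 log2, and the number of arrays limits the precision. The calling rule was run on simulated data with log2 changes of 3 planted in 200 probes and noise at the level between spots. That does not show how the rule behaves near a ratio of 2 or between hybridizations and cultures. Alternatives were 5 other normalizations (quantile, none, median, the deposited value table, and normexp with an offset of 50), 2 filters on dim probes, the Z score, a ratio of 1.5 and 2 probe rules. Python 3.11.15, numpy 2.4.6, pandas 2.3.3, R 4.3.3 and limma 3.58.1 were used.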

Additional observations from a re-analysis of the deposited data

How the results depend on the processing

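No paired analysis was possible because each condition had 1 array. The median log2 ratio of all genes in MDS-L with AZA shifted by -0.54 with median scaling and by 0.12 with quantile normalization. The array medians behind the first shift were signals of 3.12 with vehicle and 4.58 with AZA. Both were below the lowest signal well above background on their arrays (9.98 and 10.1). Members called higher with AZA in MDS-L numbered 4, but 2 (BMP6 and ID2) with median scaling or normexp, and the members' median of 0.94 came to 0.40 and 0.43. In MDS-L/CDA 1 was called, but 0 with normexp and 2 with no filter on dim probes or a ratio of 1.5. Between the lines with vehicle, 1 was lower in MDS-L/CDA, but 2 with no scaling, median scaling or a ratio of 1.5, and 0 with normexp or with both arrays required well above background, and the median of -0.03 came to -0.39 with no scaling and -0.55 with median scaling. With AZA, 2 were lower, but 4 with no scaling or a ratio of 1.5 and 1 with both arrays required, and the median of -0.41 came to -0.91 with no scaling. The other counts stayed within 1.5 times, and no called value changed sign. Alternatives for the pathway lists and for the line differences were chosen after seeing the data. Signal over background limits BMP2, ACVRL1, BMP6 in MDS-L/CDA and the dim antagonists.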
